A study of Mus musculus with 12 samples.

Results

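The RNA of polysomes and of free messenger ribonucleoprotein particles (RNP) was compared in wild-type (WT) mouse oocytes at the germinal vesicle (GV) stage, to ask which functional classes of mRNA are relatively enriched on ribosomes and which among stored messages in an oocyte that has stopped transcribing. The 6 WT libraries, of 12 in the series, comprised 3 polysome libraries (fractions 11 to 28 of a sucrose gradient) and 3 RNP libraries (fractions 1 to 10). The genes examined were the 9574 of 24259 in the table that reached 1 FPKM in 3 or more of these 6 libraries. FPKM scales the sequenced fragments of a gene by its transcript length and by the fragments mapped in the library, so that levels of different genes can be compared within a library. All mice were 3 weeks old and received 5 IU of PMSG, a gonadotropin that drives follicle growth, 46 h before collection, and about 1500 GV oocytes were lysed in the presence of cycloheximide, which holds ribosomes on the mRNA. The 6 other libraries hold the same 2 pools from *Lsm14b*-KO oocytes, collected in the same way from mice of the same C57BL/6J background that carry a targeted tm1a allele of *Lsm14b*. *Lsm14b* encodes an RNA-binding protein of RNP particles. The labels do not say whether the 3 libraries of a pool came from separate lysates, so p-values measure the spread between these libraries, which may be technical.

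A fully grown oocyte makes almost no new RNA until after fertilization, and its protein synthesis during meiosis depends on mRNAs made earlier, during growth. Some of these mRNAs are translated in the GV oocyte, among them those of the egg coat and of secreted growth factors. Others carry short poly(A) tails and are held in RNP particles until meiosis resumes, when cytoplasmic polyadenylation elements (CPEs) in the 3' untranslated region recruit the machinery that lengthens the tail and brings in ribosomes. An mRNA between rounds of translation can also be free of ribosomes, so presence in the RNP pool does not by itself mean storage.

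FPKM describes the composition of each pool and not its size. A gene that was higher in the polysome pool took a larger share of that pool than of the RNP pool, and how many molecules of it were on ribosomes was not measured. In such pooled RNA, fewer oocytes with a transcript and fewer copies per oocyte cannot be told apart. How well mRNAs with short or absent poly(A) tails were captured was not measured. The depth, estimated from the steps between low FPKM values, was 6.43 to 7.33 M fragments in the RNP libraries and 6.12 to 7.87 M fragments in the polysome libraries. Over the genes tested, log2(FPKM + 1) correlated at a Pearson r of 0.904 to 0.930 between RNP libraries, 0.872 to 0.874 between polysome libraries and 0.831 to 0.866 across the pools. The first RNP library had 12720 genes above 0 and the other two 11282 and 11270, against 10566 to 10814 in polysomes. All 12 oocyte markers were above 0 in every library. Of 18 granulosa and cumulus cell markers, 5 were high enough to be tested, and their summed level was 198 to 223 FPKM in the RNP libraries and 144 to 224 FPKM in the polysome libraries, against 8243 to 8654 and 24096 to 25836 FPKM for the oocyte markers. Of the 18, 6 were above 0 in all 3 polysome libraries and 5 in all 3 RNP libraries. Those listed at 0 in all 6 libraries were *Amhr2*, *Foxl2*, *Fst*, *Lhcgr* and *Star*. Of 17 blood, immune and stromal markers, 1 was tested.

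The difference between the pools was called for 1406 genes (14.7% of those tested) by limma on log2(FPKM + 1) with Benjamini-Hochberg adjustment at 0.05. Of these, 763 genes (7.97%) were higher in polysomes and 643 genes (6.72%) were higher in RNP. A difference of at least 1 on the log2 scale was reached by 541 of the former, and a difference of -1 or lower by 402 of the latter. Counts given for a list below are to be read beside the shares of all genes, 7.97% and 6.72%. The median over all genes tested was -0.09, with 4374 positive and 5200 negative differences. Abundant transcripts were called far more often, 44.3% of the 1689 genes that averaged 50 FPKM or more against 8.34% of the other 7885. Of the 1689, 432 were higher in polysomes and 316 in RNP. Median levels were 60.3 to 745 FPKM in either pool for the egg coat, subcortical maternal complex, oocyte *Nlrp* and dormant mRNA lists. They were 54.9 to 475 FPKM for the growth factor list and for that of the *Obox*, *Tcl1* and oogenesin families. The counts of all these lists are to be read beside the share of abundant genes. Of the genes called higher in RNP, 37 were listed at 0 in all 3 polysome libraries, with RNP means of 2.06 to 7.29 FPKM, and 5 of the genes called higher in polysomes were listed at 0 in all 3 RNP libraries. Such genes passed the filter through the pool in which they were high. The count of genes higher in RNP fell to 259 to 266 when any of the 3 RNP libraries was left out, and that of genes higher in polysomes was then 519 to 521. Without any of the 3 polysome libraries the counts were 552 to 609 and 592 to 637.

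**Figure D1:**
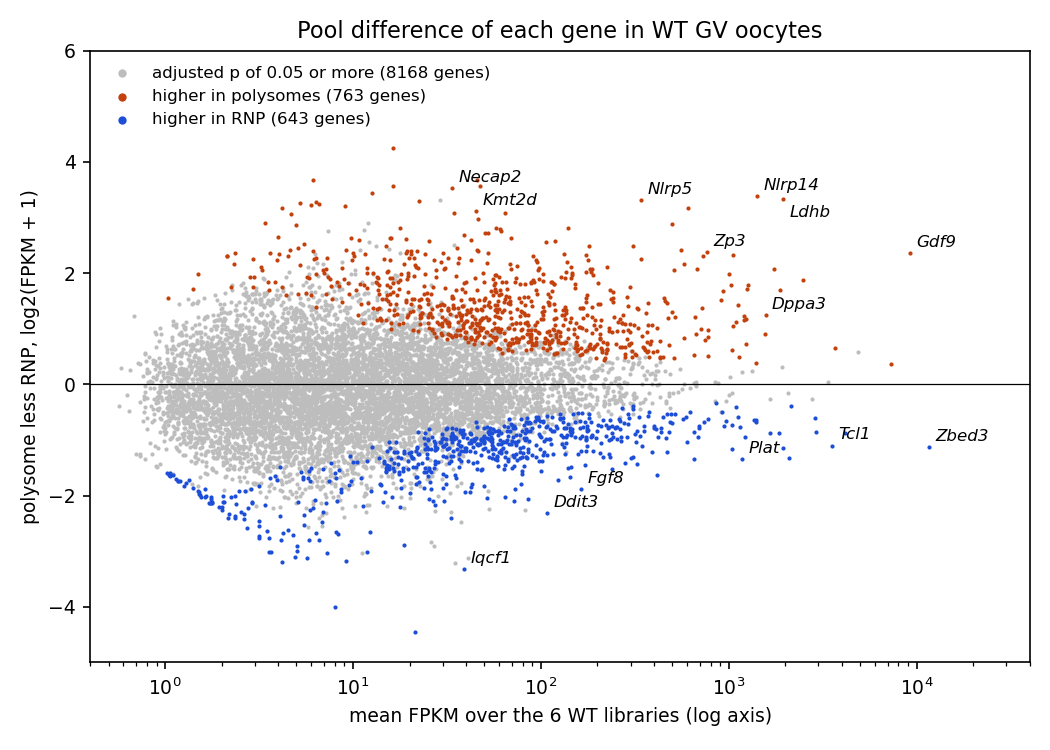
Pool difference of each gene tested in WT oocytes (vertical axis, polysome less RNP on the log2(FPKM + 1) scale) against its mean FPKM over the 6 libraries (horizontal axis, log scale). Orange points are the 763 genes called higher in polysomes, blue points the 643 called higher in RNP and grey points the rest, and the calls crowd toward abundant transcripts on both sides.

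The most abundant message of the polysome pool was *Gdf9* (growth differentiation factor 9, by which the oocyte directs its granulosa cells), and that of the RNP pool was *Zbed3*. *Gdf9* made up 3.19% of the summed FPKM of polysomes and 0.677% of that of RNP. *Zbed3* made up 1.51% of the former and 3.58% of the latter. Both pools were about equally concentrated, the 10 most abundant genes together taking 12% of polysome FPKM and 11.9% of RNP FPKM.

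Messages of the egg coat and egg surface stood among the highest on the polysome side. The list also holds the oocyte gene *Nlrp14*, which encodes no coat protein. Of its 10 tested genes, 8 were higher in polysomes and 2 in RNP, with a median difference of 1.23 beside -0.09 for all genes, and without *Nlrp14*, left out after seeing the data, there were 7 and 2 of 9 and the median was 1.02. Among all genes that averaged 50 FPKM or more, 44.3% were called in either direction. The zona pellucida is a coat of secreted glycoproteins around the oocyte, which sperm bind. Its gene *Zp3* (chr5:135980099-135988624, plus strand, GRCm38) was at 257, 238 and 243 FPKM in the RNP libraries and at 1148, 1243 and 1474 FPKM in the polysome libraries. The pools did not overlap, and the mean was 5.23-fold higher in polysomes (log2 difference 2.38 ± 0.11 SE, n = 3 libraries per pool, limma adjusted p = 6.97e-06). *Zp1* was at 59.6 to 65.1 FPKM in RNP and 146 to 208 FPKM in polysomes (difference 1.44 ± 0.17, limma adjusted p = 0.00108), and *Zp2* at 9.01 to 13 and 35.2 to 50.2 FPKM (1.76 ± 0.27, limma adjusted p = 0.00383). The 3 zona genes thus kept the order *Zp3*, *Zp1*, *Zp2* in both pools.

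*Astl* encodes ovastacin, the cortical granule protease that cleaves the coat after fertilization. It was at 96.2, 167 and 101 FPKM in RNP and at 880, 952 and 793 FPKM in polysomes, 7.2-fold higher (2.88 ± 0.2, limma adjusted p = 6.89e-05). The sperm receptor on the egg membrane, *Izumo1r* (Juno), was at 207 to 243 FPKM in RNP and 346 to 388 FPKM in polysomes, a smaller difference of 0.72 ± 0.12 (limma adjusted p = 0.00461). *Cd9*, a membrane protein needed for sperm fusion, differed by 1.02 ± 0.22 (limma adjusted p = 0.0157). The exceptions were 2 of the 3 oocyte secreted protein genes, which lie side by side on chromosome 19. *Oosp1* was at 514, 499 and 419 FPKM in RNP and 161, 188 and 179 FPKM in polysomes (-1.43 ± 0.13, limma adjusted p = 0.000234), and *Oosp3* at 155 to 233 and 46.9 to 63.1 FPKM (-1.72 ± 0.2, limma adjusted p = 0.000953). Their neighbor *Oosp2* went the other way, with 159 to 218 FPKM in RNP and 297 to 327 FPKM in polysomes (0.72 ± 0.14, limma adjusted p = 0.0115). *Oosp3* and *Cd9* share exons with another annotated gene, so part of their reads could belong to it, and *Cd9* lost its call without the third RNP library.

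The subcortical maternal complex is a protein assembly beneath the oocyte membrane that the embryo needs for its early cleavages. Its 8 tested genes had the highest median of any list, 2.15, with 6 higher in polysomes and 1 in RNP. *Nlrp5* (Mater), its best known component, was at 59.4, 67.1 and 57.3 FPKM in RNP and at 573, 609 and 677 FPKM in polysomes, 10.1-fold higher (3.32 ± 0.13, limma adjusted p = 2.66e-06). *Padi6*, a peptidylarginine deiminase family member required for the cytoplasmic lattices of the oocyte, was at 117 to 124 FPKM in RNP and 1069 to 1137 FPKM in polysomes (3.17 ± 0.1, limma adjusted p = 8.5e-07). *Nlrp2*, *Khdc3* (which shares exons with *Gm20509*) and *Tle6* differed by 2.49, 2.23 and 2.07, and *Ooep*, which is far more abundant in RNP than *Nlrp5* (429 to 523 FPKM), by 0.9. Each of these genes had polysome libraries that lay above every RNP library. *Nlrp4f* was at 337 to 393 FPKM in RNP and 384 to 497 FPKM in polysomes, overlapping, and was not called (0.24 ± 0.13, limma adjusted p = 0.244).

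The exception in the complex was *Zbed3*, which encodes a zinc finger protein found with the complex and lies on chromosome 13 (95323612 to 95337841, plus strand). It was at 15095, 16318 and 16324 FPKM in RNP and at 7882, 7509 and 6476 FPKM in polysomes, 2.18-fold higher in RNP (-1.13 ± 0.08, limma adjusted p = 6.56e-05). Its level in polysomes still exceeded that of every other gene of the list in that pool.

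The wider family of oocyte *Nlrp* genes encodes NLR proteins, several of them expressed almost exclusively in the oocyte. Of 9 tested, 6 were higher in polysomes and none was called higher in RNP by limma (0 also at an unadjusted p under 0.05), with a median of 1.38. *Nlrp14* (chr7:107166990-107198102, plus strand), counted here and among the egg surface genes, had the largest of these differences. It was at 256, 214 and 271 FPKM in RNP and at 2565, 2680 and 2475 FPKM in polysomes, 10.4-fold higher (3.38 ± 0.11, limma adjusted p = 8.5e-07). *Nlrp9a*, *Nlrp9c*, *Nlrp9b*, *Nlrp4b* and *Nlrp4a* followed at 2.12, 1.81, 1.54, 1.38 and 0.61. Close copies within this family can share reads, so the values of single members are uncertain to that extent.

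**Figure D2:**
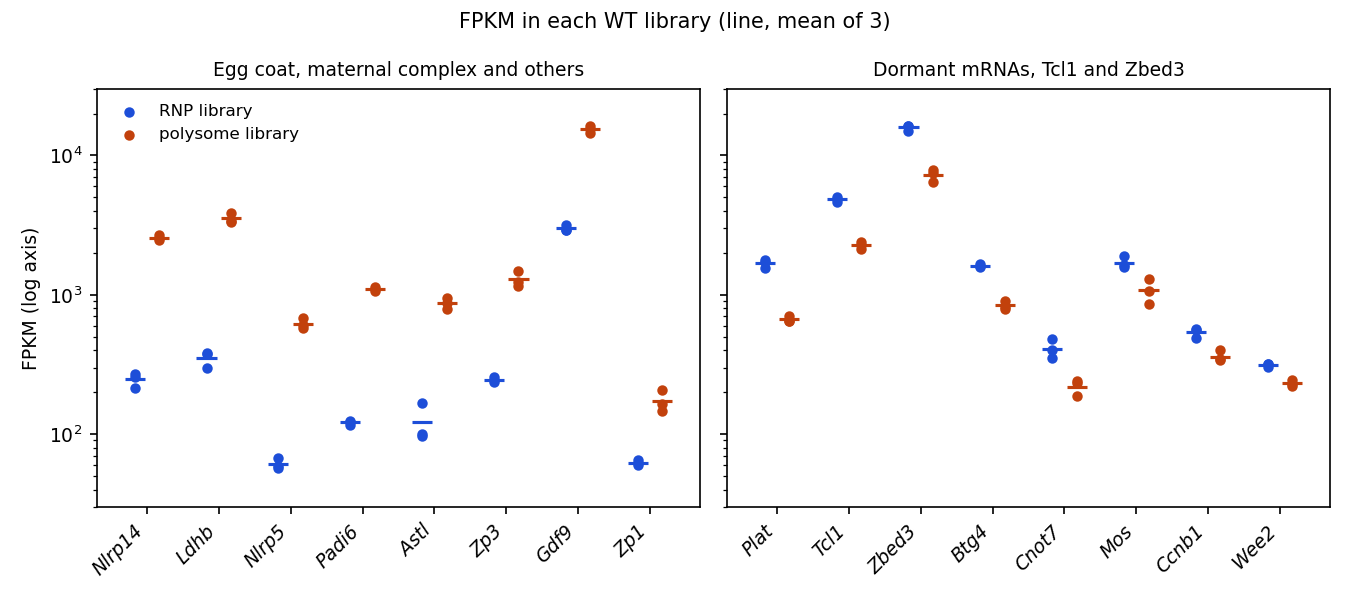
FPKM (log axis) of 16 genes in each of the 3 RNP libraries (blue) and 3 polysome libraries (orange) of WT oocytes, with a line at each mean. On the left, *Nlrp14*, *Ldhb*, *Nlrp5*, *Padi6*, *Astl*, *Zp3*, *Gdf9* and *Zp1* have every polysome library above every RNP library, and on the right *Plat*, *Tcl1*, *Zbed3*, *Btg4*, *Cnot7*, *Mos*, *Ccnb1* and *Wee2* have every RNP library above every polysome library.

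Genes for exchange between the oocyte and its granulosa cells were split. Of 13 tested genes on the list of growth factors and receptors, 4 were higher in polysomes and 3 in RNP, and the median was 0.34. *Gdf9* (chr11:53431023-53437904, plus strand) was at 2925, 2919 and 3174 FPKM in RNP and at 15569, 16191 and 14480 FPKM in polysomes, 5.13-fold higher (2.36 ± 0.07, limma adjusted p = 8.5e-07). *Bmp15*, whose product acts together with that of *Gdf9*, was at 641 to 714 FPKM in RNP and 2649 to 3074 FPKM in polysomes (2.07 ± 0.09, limma adjusted p = 4.5e-06). *Kit*, the receptor by which granulosa cells promote oocyte growth, differed by 0.81. *Fgf8*, a fibroblast growth factor that acts with BMP15 on cumulus cells, was on the RNP side, at 298, 249 and 223 FPKM there and 101, 70 and 44 FPKM in polysomes (-1.89 ± 0.28, limma adjusted p = 0.00294). *Gja4* encodes the connexin of the junctions between oocyte and granulosa cells, and neither a growth factor nor a receptor. It was at 1634 to 1798 FPKM in RNP and 991 to 1194 FPKM in polysomes (-0.64 ± 0.09, limma adjusted p = 0.00282).

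Regulators of oocyte transcription and of DNA methylation were also divided. *Figla*, which drives the zona genes, was at 6.58 to 14 FPKM in RNP and 32.1 to 54.3 FPKM in polysomes (2.06 ± 0.34, limma adjusted p = 0.00531), and *Nfya* was at 28.8 to 52.5 and 8.68 to 14.5 FPKM (-1.57 ± 0.32, limma adjusted p = 0.0139, and not called without the third RNP library). Of 15 transcription factors on this list, 3 were higher in polysomes and 2 in RNP, or 1 without the third RNP library. Among 14 DNA methylation factors, *Dppa3* (Stella, which protects maternal methylation), *Tet3*, *Uhrf1* and *Dnmt1* were higher in polysomes, at 1.25, 1.06, 0.96 and 0.7. *Zfp57*, which maintains imprints in the embryo, was at 2920, 3014 and 2990 FPKM in RNP and 1306, 1192 and 1083 FPKM in polysomes (-1.32 ± 0.09, limma adjusted p = 4.63e-05).

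**Figure D3:**
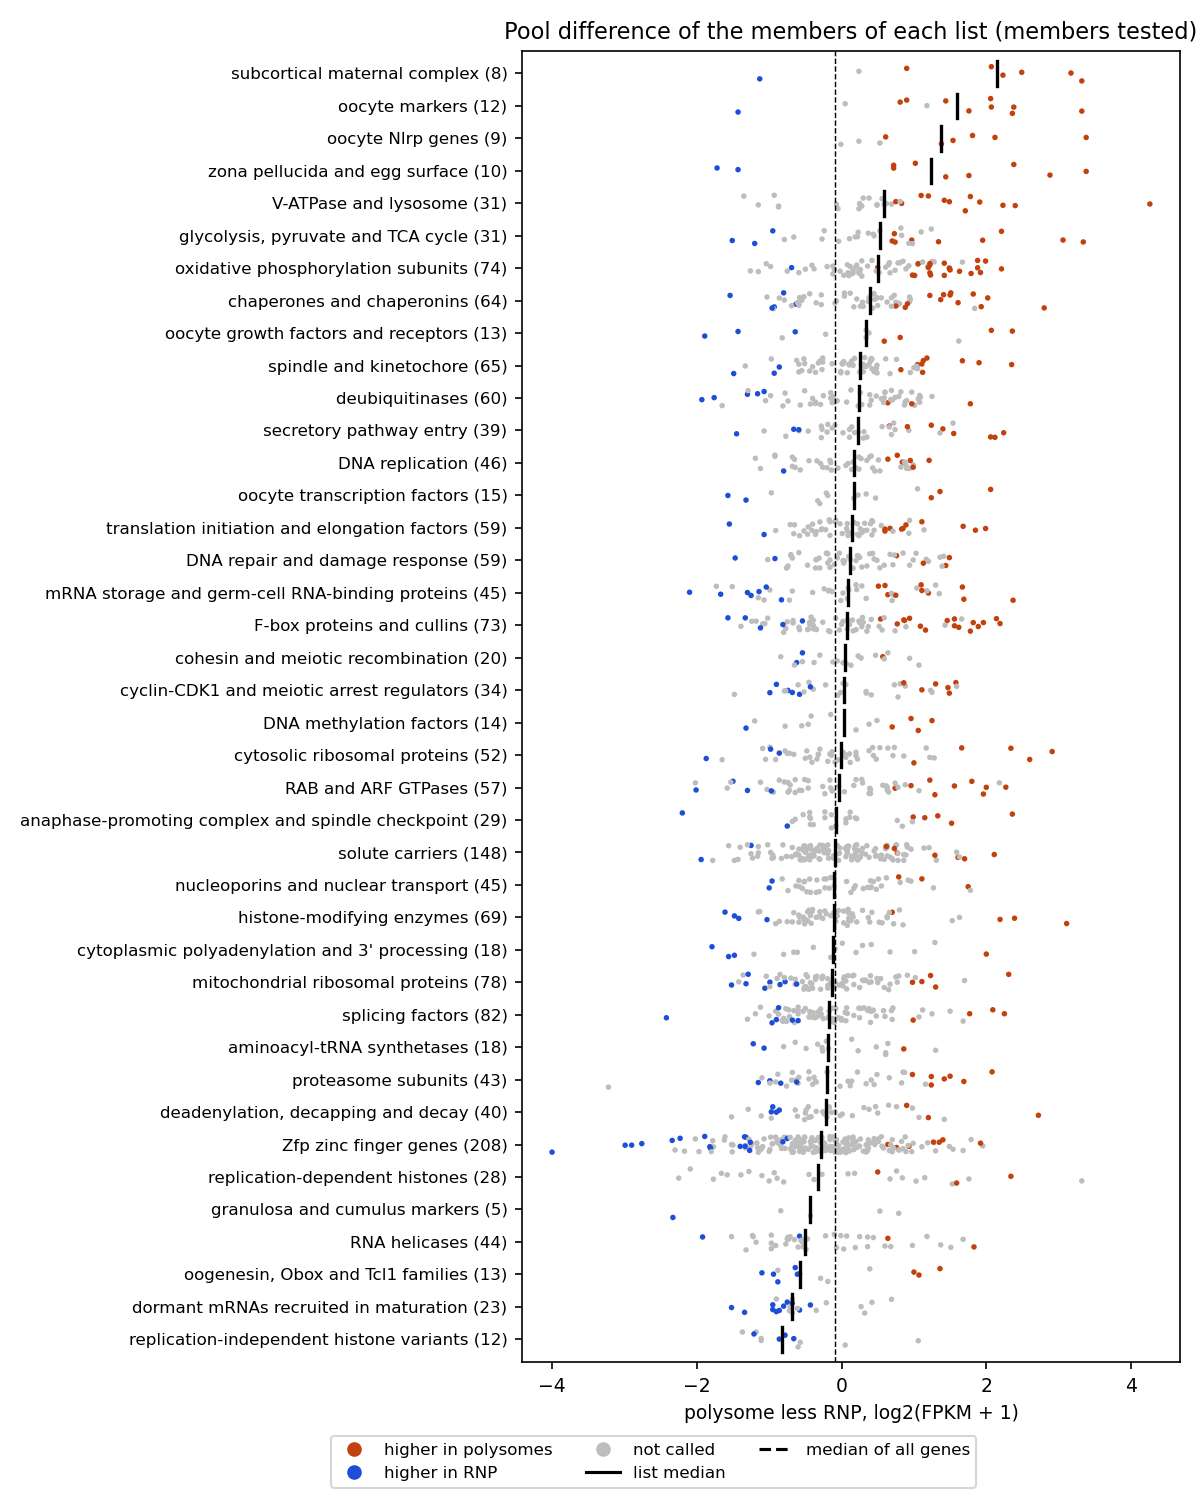
Pool difference of each tested member (polysome less RNP, log2(FPKM + 1), horizontal axis) for the 40 lists with at least 5 members tested, one list per row with the number tested in parentheses. Orange and blue points were called higher in polysomes and in RNP, a black bar marks the list median and the dashed line the median of all genes, -0.09, and the medians run from -0.82 for replication-independent histone variants to 2.15 for the subcortical maternal complex.

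Energy metabolism leaned to the polysome side. Of 74 tested subunits of oxidative phosphorylation, the mitochondrial chain that makes ATP, 21 were higher in polysomes and 1 in RNP, and 59 of 74 had a positive difference (median 0.51). Without the third RNP library the count on the polysome side was 11, without the second it was 12, and without any other library it was 15 to 21. *Uqcrfs1*, the Rieske subunit of complex III, was at 48.2, 16.5 and 40.6 FPKM in RNP and at 148, 198 and 118 FPKM in polysomes (2.21 ± 0.38, limma adjusted p = 0.00602). *Cox8a* of complex IV was at 214 to 266 FPKM in RNP and 559 to 779 FPKM in polysomes (1.5 ± 0.15, limma adjusted p = 0.0004). The 1 subunit on the RNP side was *Sdhd* of complex II, at 308 to 359 and 182 to 272 FPKM (-0.69 ± 0.17, limma adjusted p = 0.0289), and it was not called when any RNP library or the first or the third polysome library was left out.

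In glycolysis, pyruvate metabolism and the tricarboxylic acid cycle, 9 of 31 genes were higher in polysomes and 3 in RNP (median 0.53), and the first count was 5 without the second or the third polysome library and the other 1 without the first or the second RNP library. *Ldhb* encodes lactate dehydrogenase B, the form that favors conversion of lactate to pyruvate, on which oocytes feed. It was at 374, 381 and 299 FPKM in RNP and at 3356, 3399 and 3870 FPKM in polysomes, 10.1-fold higher (3.34 ± 0.11, limma adjusted p = 1.26e-06). Components of the pyruvate dehydrogenase complex, which feeds pyruvate into the cycle, were on the same side, with *Pdhb* at 2.21, *Dlat* at 1.95, *Dld* at 0.73 and *Pdhx* at 0.7. *Cs*, citrate synthase, which takes the next step, was at 204 to 246 FPKM in RNP and 94.6 to 108 FPKM in polysomes (-1.2 ± 0.14, limma adjusted p = 0.00103).

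The vacuolar ATPase pumps protons into lysosomes and secretory vesicles. Of 31 tested genes for its subunits and for lysosomal proteins, 12 were higher in polysomes and none was called higher in RNP by limma (1 at an unadjusted p under 0.05), with a median of 0.59 and 24 of 31 positive. The count of 12 was 7 without the first RNP library and 8 to 10 without any other, and 2 were called higher in RNP without the second polysome library. The subunit genes alone, a subset set apart after its values were seen, had 9 of 18 higher in polysomes and a median of 0.78. *Atp6ap1*, an accessory subunit, was at 4.4 to 5.77 FPKM in RNP and 20.9 to 43.7 FPKM in polysomes (2.4 ± 0.36, limma adjusted p = 0.00328). The protease genes *Ctsd* and *Ctsb* differed by 1.91 and 1.78, and both share exons with other annotated genes.

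Genes for protein folding and for entry into the secretory pathway gave more calls on the polysome side than on the RNP side. Among 64 chaperones and chaperonins, 13 were higher in polysomes and 5 in RNP (median 0.4), or 3 in RNP without the first RNP library. *Hspa5*, the main chaperone of the endoplasmic reticulum, was at 15, 11 and 18.1 FPKM in RNP and at 106 FPKM in each polysome library (2.8 ± 0.23, limma adjusted p = 0.000183). *Hspd1* and *Hspe1*, the 2 subunits of the mitochondrial chaperonin, were both higher in polysomes, at 1.93 and 1.41. Among 39 genes of secretory pathway entry, 8 were higher in polysomes and 3 in RNP (median 0.23), or 1 in RNP without any RNP library or the second or the third polysome library. *Ssr2*, a subunit of the translocon-associated complex, was at 8.42 to 18.6 FPKM in RNP and 64.1 to 79 FPKM in polysomes (2.24 ± 0.31, limma adjusted p = 0.00227). *Srp14* of the signal recognition particle was on the other side, at 220 to 278 and 66.8 to 134 FPKM (-1.45 ± 0.24, limma adjusted p = 0.00576).

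F-box proteins choose the substrates of SCF ubiquitin ligases. Of 73 tested genes for F-box proteins and cullins, 17 were higher in polysomes and 5 in RNP, with a median of 0.08. The 17 became 11 without the first RNP library and 12 to 14 without any other, and the 5 became 2 without any RNP library and 3 without the second or the third polysome library. The calls on the polysome side lay mostly in the *Fbxw* family, several clustered members of which are known from oocytes. Set apart after their values were seen, 22 *Fbxw* genes had 11 members higher in polysomes, 1 in RNP and a median of 0.86, while 40 *Fbxl* and *Fbxo* genes had 4 in each direction and a median of -0.4. *Fbxw19* was at 16.6 to 20.1 FPKM in RNP and 79.6 to 89.5 FPKM in polysomes (2.19 ± 0.2, limma adjusted p = 0.000253), and *Fbxl6* at 107 to 114 and 38.7 to 46.6 FPKM (-1.33 ± 0.16, limma adjusted p = 0.00135). *Skp1a*, the adaptor that links F-box proteins to the cullin, was at 398 to 525 FPKM in RNP and 1443 to 1806 FPKM in polysomes (1.78 ± 0.13, limma adjusted p = 8.36e-05). The clustered *Fbxw* genes are near copies of one another, so reads could be divided among those members. Proteasome subunits, which act after the ligases, had 7 of 43 genes higher in polysomes and 4 in RNP, with a median of -0.2, and the 4 became 0 or 1 without any RNP library or the first polysome library.

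The opposite pattern was found for mRNAs known to be dormant in the GV oocyte and recruited to ribosomes during maturation. None of the 23 genes on this list was called higher in polysomes by limma (2 at an unadjusted p under 0.05), 11 were higher in RNP, and 19 of 23 had a negative difference (median -0.68). Among the 11, *Plat* encodes tissue plasminogen activator, a long-studied case of cytoplasmic polyadenylation in the mouse oocyte. It lies at chr8:22757727-22782844 (plus strand) and was at 1555, 1715 and 1789 FPKM in RNP and at 703, 647 and 652 FPKM in polysomes, 2.53-fold higher in RNP (-1.34 ± 0.09, limma adjusted p = 5.35e-05). *Btg4*, an adaptor that brings the deadenylase to maternal mRNAs as they are cleared, was at 1573, 1660 and 1609 FPKM in RNP and 906, 818 and 790 FPKM in polysomes (-0.95 ± 0.08, limma adjusted p = 0.000242). *Cnot7*, a catalytic subunit of that deadenylase, was at 350 to 481 and 189 to 239 FPKM (-0.9 ± 0.15, limma adjusted p = 0.00587), and shares exons with *Zdhhc2*.

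*Mos*, *Ccnb1* and *Wee2*, of the meiotic cell cycle, were also among the 11. *Mos*, the kinase that holds the egg in metaphase II, was at 1645, 1571 and 1894 FPKM in RNP and at 1297, 859 and 1069 FPKM in polysomes (-0.68 ± 0.15, limma adjusted p = 0.0169). *Ccnb1*, cyclin B1, was at 487 to 564 FPKM in RNP and 338 to 399 FPKM in polysomes (-0.58 ± 0.11, limma adjusted p = 0.012). *Wee2*, an inhibitory kinase of CDK1, was at 302 to 317 and 222 to 243 FPKM (-0.43 ± 0.11, limma adjusted p = 0.0309). *Orc6*, *Bub1b*, *Tex19.1*, *Pan2* and *Ccne2* made up the rest of the 11, at -0.8, -0.75, -0.95, -0.86 and -1.52. The count of 11 was 5, 6 and 4 without the first, the second and the third RNP library, and 8, 11 and 9 without the polysome libraries in the same order. *Pan2* was not called without any 1 of the 6 libraries, *Tex19.1* without any 1 of the RNP libraries, *Ccne2* without any 1 of these or the first or the third polysome library, *Bub1b* without the first or the third RNP library and *Orc6* without the first. *Mos* lost its call without the third RNP library, *Ccnb1* without the second or the third, and *Wee2* without any of the 3 or without the first or the second polysome library. *Plat*, *Btg4* and *Cnot7* were called without each of the 6 libraries in turn. In a limma fit without the intensity trend, *Cnot7* was not called (limma adjusted p = 0.0761). The calls of *Mos*, *Ccnb1*, *Wee2*, *Bub1b*, *Orc6*, *Pan2* and *Tex19.1* were also lost in that fit (limma adjusted p = 0.0648 to 0.237). *Orc6* and *Ccne2* share exons with other genes.

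Of the 12 dormant mRNAs that were not called, 8 had negative differences. *Spin1*, the spindle regulator spindlin, was at 1664 to 1718 FPKM in RNP and 1860 to 2373 FPKM in polysomes (0.32 ± 0.1, limma adjusted p = 0.0571). It was called higher in polysomes when the third polysome library was left out. The same call was made with a filter at 5 FPKM, after rescaling to a common median and in the fit of all 12 libraries. *Slbp*, the histone mRNA binding protein, was at 478 to 530 and 558 to 652 FPKM (0.27 ± 0.1, limma adjusted p = 0.118). *Tpx2* and *Itpr1* also had positive values, 0.42 and 0.69, at low levels. The range for the other 8 was -0.9 to -0.21.

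The 3' ends of these mRNAs are shown because the CPE near the cleavage site is the element known to act in their recruitment. A CPE was taken as the letters TTTTAT or TTTTAAT in the last 100 bases of the annotated transcript (GENCODE M21, GRCm38), on the transcript's own strand, for 3' untranslated regions of at least 100 bases. Of the 11 dormant mRNAs called higher in RNP, 7 carried at least 1, and of all 23, 9 did (39.1%), beside 20.2% of all genes tested with such an end. The rest of the 11, *Mos*, *Ccnb1*, *Tex19.1* and *Ccne2*, had no match in this window. Each line gives 30 bases of the last exon, 5' to 3', with the CPE and the AATAAA polyadenylation signal in capitals where they fall within the window.
Plat, chr8:22782745-22782774, plus strand: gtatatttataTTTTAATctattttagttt
Btg4, chr9:51119797-51119826, plus strand: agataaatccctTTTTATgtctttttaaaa
Cnot7, chr8:40493036-40493065, minus strand: ttaaggtacaTTTTATatcAATAAAaatac
Wee2, chr6:40466780-40466809, plus strand: tcattgtaAATAAAgaTTTTATcttatcca
Bub1b, chr2:118641556-118641585, plus strand: cactgtgtaTTTTATAATAAAatagttttt
Orc6, chr8:85308005-85308034, plus strand: tggttttttaaaTTTTATttcactaaatgt
Pan2, chr10:128321309-128321338, plus strand: acagcatgTTTTATaaAATAAAagtatttt
*Zbed3* and *Tcl1*, among the most abundant RNP messages, are shown in the same way, since they carried the element as well. In *Zbed3* the letters TTTTAAT overlap the polyadenylation signal, and a TTTTAT follows it.
Zbed3, chr13:95337807-95337836, plus strand: ccttttttttTTTTAATAAAcTTTTATtta
Tcl1, chr12:105216797-105216826, minus strand: gaatgtgtgggaTTTTATgtggttctattt
For comparison, 3 messages with large differences toward polysomes are shown, which held the polyadenylation signal and neither CPE in their last 100 bases. *Gdf9* is added as an exception, with a CPE upstream of its signal. A match of these letters is a description and not a tested site.
Nlrp5, chr7:23441887-23441916, plus strand: tagcaagaatgaAATAAAcacagcatttag
Padi6, chr4:140727361-140727390, minus strand: tgccatagagccAATAAAgcatggtattct
Ldhb, chr6:142490255-142490284, minus strand: agctcctgatcaAATAAAgttagcaattgc
Gdf9, chr11:53437862-53437891, plus strand: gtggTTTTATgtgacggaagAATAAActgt

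Across all transcripts, the share with a CPE in the last 100 bases followed the pool difference. It was 12.7% among 716 genes called higher in polysomes with such an end, 19.9% among 7469 genes not called, and 32.9% among 587 genes called higher in RNP. Ranked by difference into 10 equal groups, the shares ran from 27.4% and 29.1% in the 2 groups farthest to the RNP side to 13.6% and 13.2% in the 2 groups farthest to the polysome side. The share with AATAAA was 67.7%, 66.2% and 67.3% in the 3 groups. Of the genes with no CPE, 8.93% were called higher in polysomes and 5.63% in RNP, of those with 1, 5.53% and 10.1%, and of those with 2, 3.42% and 15.2%. Of the 29 genes with 3 or more, 0% and 13.8% were called. The median difference was -0.03 with none, -0.26 with 1, -0.43 with 2 and -0.57 with 3 or more. The genes are not independent replicates, and these shares are given without a test.

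**Figure D4:**
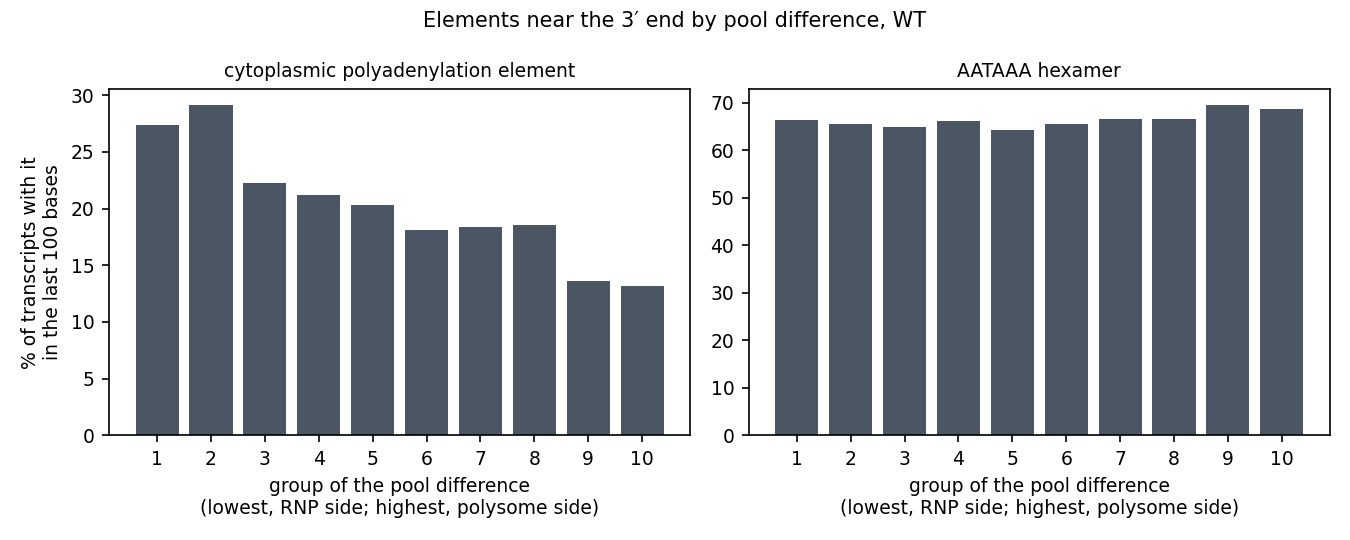
Share of transcripts (%) with a CPE (TTTTAT or TTTTAAT, left) or AATAAA (right) in the last 100 bases, for 8772 genes in 10 equal groups of the pool difference from the RNP side (group 1) to the polysome side (group 10). The CPE share falls from 27.4% to 13.2%, while that of AATAAA stays between 64.2% and 69.4%.

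The same order was seen in abundant and in rarer transcripts. At 50 FPKM or more on average the CPE shares were 12.2%, 20.9% and 37.6% in genes higher in polysomes, not called and higher in RNP, and below that mean they were 13.4%, 19.8% and 28.3%. The median GC content of the last 100 bases was 36%, 35% and 35% in the same groups, and the median number of T was 33 in each. Among ends of at most 35% GC a CPE was present in 68 of 356, 1201 of 3841 and 144 of 308 genes, and among the others in 6.39%, 7.97% and 17.6%. These splits were chosen after seeing the data.

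The other arrangements of 1 A and 5 T were searched in the same windows for comparison, also after seeing the data. TTTTAT was present in 11.2% of the ends of genes higher in polysomes and 26.4% of those higher in RNP, a ratio of 2.36, and TTTTAAT in 2.37% and 8.86%, a ratio of 3.73. The largest gap among the 6 arrangements belonged to TTTTTA, with 8.94% and 31.3% (3.51), and the other 4 had ratios of 1.57 to 1.89. TTTTTA and TTTTAT overlap in the run TTTTTAT. Ends with both a CPE and TTTTTA were called higher in RNP in 13% of 911 genes and higher in polysomes in 3.29%, those with a CPE and no TTTTTA in 8.69% and 7.07% of 863, and those with TTTTTA and no CPE in 8.75% and 4.51% of 754. The 1510 genes with only 1 or more of the other 4 arrangements had 5.5% and 8.87%, close to the 5.18% and 9.65% of 4734 genes with none of the 6 and no TTTTAAT.

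**Figure D5:**
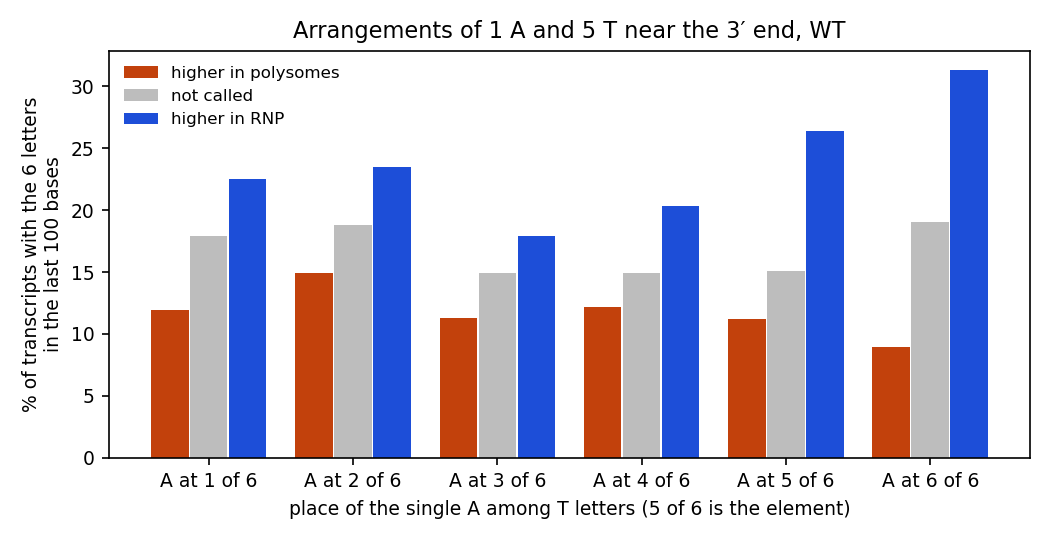
Share of transcripts (%) whose last 100 bases hold 1 A among 5 T, by the place of the A, for genes called higher in polysomes (orange), not called (grey) and higher in RNP (blue). The blue bar is above the orange bar in each of the 6 arrangements, by the most for A in place 6 (31.3% and 8.94%) and in place 5 (26.4% and 11.2%), which is the CPE.

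The oocyte-restricted *Obox*, *Tcl1* and oogenesin families had calls in both directions. Of 13 tested genes, 6 were higher in RNP and 3 in polysomes (median -0.58). Median levels of this list were 475 FPKM in polysomes and 472 FPKM in RNP. Its counts are to be read beside the 44.3% of abundant genes called in either direction. The 6 were homeobox genes of the *Obox* family and members of the *Tcl1* family, and the 3 were *Oog2*, *Oog4* and *Pramef12*, which encode leucine-rich repeat proteins. *Tcl1*, a coactivator of the kinase AKT, was at 4644, 4849 and 5064 FPKM in RNP and at 2271, 2122 and 2404 FPKM in polysomes (-1.1 ± 0.07, limma adjusted p = 5.35e-05). *Pramef12* was at 175 to 190 and 441 to 494 FPKM (1.36 ± 0.11, limma adjusted p = 0.000166). *Obox2* (-0.88) and *Obox1* (-0.64) share exons, so their values are not separate measurements.

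Of 12 tested genes for replication-independent histone variants, which are placed into chromatin outside of S phase, 4 were higher in RNP and none was called higher in polysomes by limma (0 also at an unadjusted p under 0.05), with a median of -0.82. *H2afx*, the variant marked at DNA breaks, was at 614 to 728 FPKM in RNP and 225 to 331 FPKM in polysomes (-1.21 ± 0.15, limma adjusted p = 0.00155). *H3f3a* and *H3f3b*, which both encode histone H3.3, were at -0.78 and -0.66, and *Cenpa*, the centromeric variant, at -0.86. Of 28 replication-dependent histone genes, whose mRNAs end in a stem-loop in place of a poly(A) tail, 3 were higher in polysomes and none was called higher in RNP by limma (4 at an unadjusted p under 0.05). How well the libraries captured mRNAs without a poly(A) tail was not tested, so these counts may not describe the class. The 3 became 0 without the second RNP library and 1 without the third or without the first polysome library, and the count in RNP became 1 without the second RNP or the first polysome library and 2 without the third polysome library. Their median of -0.33 changed sign relative to all genes when the first RNP or the second polysome library was left out. *H2afx* and *H3f3a* share exons with other genes.

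Zinc finger genes with the *Zfp* symbol, most of them transcription factors, had 17 of 208 members (8.17%, beside 6.72% of all genes) higher in RNP and 7 (3.37%, beside 7.97%) in polysomes (median -0.29). The 17 became 7, 7 and 6 without the first, the second and the third RNP library, and 15 to 18 without a polysome library, and the 7 became 4 without the first or the second RNP or the second polysome library. Of 235 long non-coding RNAs tested, which are not expected to be translated, 19 (8.09%) were higher in RNP and 3 (1.28%) in polysomes, beside 6.71% and 8.14% of 9214 protein-coding genes, and the medians were -0.46 and -0.08. The 3 were *Snhg5*, 1700001L05Rik and 1700018B24Rik, named after their values were seen. *Snhg5*, a host gene of small nucleolar RNAs, was at 3.26, 0.191 and 0 FPKM in RNP and at 22.2, 22.5 and 6.25 FPKM in polysomes (3.2 ± 0.71, limma adjusted p = 0.0189).

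The mRNAs of the storage machinery itself lay on both sides. Of 45 tested genes for RNA-binding proteins of mRNA storage and the germ line, 10 were higher in polysomes and 7 in RNP (median 0.09), with 6 in polysomes when the second RNP library was left out. *Ybx3*, a Y-box protein of the family that packages maternal mRNA, was at 128, 92.1 and 131 FPKM in RNP and at 35.9, 21.2 and 23.8 FPKM in polysomes (-2.1 ± 0.25, limma adjusted p = 0.00115), and *Ybx1* was at -1.67. *Lsm14b* (chr2:180024987-180035465, plus strand) was at 34.6, 29.3 and 27.4 FPKM in RNP and at 11.3, 15.3 and 13.2 FPKM in polysomes (-1.14 ± 0.26, limma adjusted p = 0.0216). Its call was lost without any 1 of the RNP libraries. The related *Lsm14a* was at 114 to 124 and 42.4 to 51.3 FPKM (-1.3 ± 0.16, limma adjusted p = 0.0014).

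On the polysome side, *Cpeb1*, which encodes the protein that binds CPEs, was at 275, 287 and 296 FPKM in RNP and at 666, 703 and 613 FPKM in polysomes (1.2 ± 0.1, limma adjusted p = 0.000199). *Eif4enif1*, the 4E-T protein that represses translation at the cap, was at 93 to 97 and 178 to 257 FPKM (1.11 ± 0.16, limma adjusted p = 0.00298). *Larp4b*, a poly(A)-linked La-related protein, had the largest difference of the list, at 7 to 14 and 46.8 to 55.2 FPKM (2.37 ± 0.31, limma adjusted p = 0.00171). The paralogs *Zar1* and *Zar1l*, zygote arrest proteins that bind maternal mRNA, went apart. *Zar1* was at 701, 1012 and 952 FPKM in RNP and 2747, 3142 and 2661 FPKM in polysomes (1.69 ± 0.14, limma adjusted p = 0.000183). *Zar1l* was at 821, 811 and 783 FPKM in RNP and 354, 381 and 439 FPKM in polysomes (-1.04 ± 0.11, limma adjusted p = 0.000503).

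Factors of mRNA decay gave 3 of 40 genes higher in polysomes and 4 in RNP (median -0.21). The 4 were *Btg4*, *Cnot7* and *Pan2*, all among the dormant mRNAs above, and *Lsm3*, at -0.97, which shares exons with another gene. *Lsm4*, of the same Sm-like family, was at the opposite end (2.72 ± 0.25, limma adjusted p = 0.000253).

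Cell cycle genes had calls in both directions. Of 34 regulators of CDK1 and of meiotic arrest, 6 were higher in polysomes and 6 in RNP (median 0.04), and the 6 in RNP became 4, 2 and 1 without the first, the second and the third RNP library and 3 without the first polysome library. *Mos*, *Ccnb1* and *Wee2* of the RNP side are among the dormant mRNAs, and the others there were *Ccna2*, *Cdc25a* and *Cks1b*, at -0.99, -0.9 and -0.74. *Cks2*, a small CDK-binding subunit needed for meiosis I, was at 137 to 148 FPKM in RNP and 378 to 505 FPKM in polysomes (1.58 ± 0.14, limma adjusted p = 0.000214), in contrast to its paralog *Cks1b*. *Mapk3*, the ERK1 kinase downstream of MOS, was at 173 to 229 and 497 to 625 FPKM (1.47 ± 0.14, limma adjusted p = 0.000404), and *Cdc25b*, the phosphatase that starts meiotic resumption, was at 1.49. *Ccna2* and *Cdc25b* share exons with other genes. In the anaphase-promoting complex and spindle checkpoint, 5 of 29 genes were higher in polysomes and 2 in RNP, with 3 in polysomes without the second or the third RNP or the first polysome library and 1 in RNP without the first or the third RNP library. *Pttg1* (securin) was at 15.3 to 18.5 FPKM in RNP and 84.8 to 91.5 FPKM in polysomes (2.36 ± 0.2, limma adjusted p = 0.000193), and *Cdc26*, a small subunit of the complex, at 26.7 to 33.4 and 4 to 7.35 FPKM (-2.2 ± 0.33, limma adjusted p = 0.0032).

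The translation machinery showed no common direction. Of 52 cytosolic ribosomal protein genes tested, 5 were higher in polysomes and 3 in RNP, shares near those of all genes, with a median of -0.01. The 5 became 3 without the first RNP or the second or the third polysome library, and the 3 became 5 without the third polysome library. *Rplp0*, a ribosomal stalk protein, was at 43.2 to 50.7 FPKM in RNP and 8.17 to 18.8 FPKM in polysomes (-1.87 ± 0.32, limma adjusted p = 0.00575), and *Rpl23* at 0.186 to 4.46 and 9.25 to 32.7 FPKM (2.6 ± 0.67, limma adjusted p = 0.0343), the latter not called without the first or the third RNP or the second or the third polysome library. The values of this class are uncertain. The other 33 of 85 genes were under the filter, 14 of them listed at 0 in all 6 libraries, *Rpl11* included, and the ubiquitous *Gapdh* and *Eno1* reached no more than 0.686 and 0.000136 FPKM in any of them. Genes with many near-identical processed copies can lose reads when a read matches several places, so such a 0 or near-0 can be a failed estimate. Mitochondrial ribosomal proteins had 5 of 78 genes (6.41%, beside 7.97% of all genes) higher in polysomes and 8 (10.3%, beside 6.72%) in RNP. Their median was -0.13, the 8 becoming 1 to 3 without an RNP library and the 5 becoming 3 without the third. Initiation and elongation factors had 10 of 59 higher in polysomes and 2 in RNP (median 0.14), with *Eif5a* and *Eif4a1* at 0.83 and 0.89 and *Eef1e1* at -1.07, and the 10 became 6, 5 and 5, and the 2 became 1, without the first, the second and the third RNP library.

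Several other large lists lay near the median of all genes. The median was between -0.2 and 0.05 for aminoacyl-tRNA synthetases, splicing factors, histone-modifying enzymes, nucleoporins, solute carriers, RAB and ARF GTPases, and cohesin and recombination genes. Nucleoporins, for example, had 3 of 45 genes higher in polysomes and 2 in RNP, and solute carriers 7 of 148 and 2. The nucleoporin counts became 6 and 1 without the third polysome library, the RNP count was 0 without the third RNP library and 1 without the first RNP or the first polysome library, and the solute carrier counts were 4 and 1 without any RNP library, 3 and 1 without the second polysome library and 7 and 4 without the first. RNA helicases had a lower median, -0.5, with 2 of 44 genes called in each direction, and 1 and 0 without any 1 of the RNP libraries. Spindle and kinetochore genes (9 of 65 higher in polysomes, 3 in RNP, median 0.25), DNA replication (6 and 1 of 46, 0.17), DNA repair (4 and 2 of 59, 0.12) and deubiquitinases (3 and 5 of 60, 0.24) had medians above that of all genes. Shares called higher in polysomes and in RNP were 13.8% and 4.62%, 13% and 2.17%, 6.78% and 3.39%, and 5% and 8.33% in that order. Those of all genes tested were 7.97% and 6.72%. The spindle count in polysomes was 5 without the first or the third RNP library, and that of DNA replication was 3 without any 1 of the RNP libraries, with 0 in RNP without the first and 2 without the first polysome library. The DNA repair count in polysomes was 1 without the first RNP or the second polysome library and 2 without the second or the third RNP library, and that in RNP was 0 without the third and 1 without the first or the second. The deubiquitinase count in polysomes was 1 without the first RNP or the first polysome library, and that in RNP was 3 without the third RNP library.

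The largest differences among genes that averaged 10 FPKM or more, were above 0 in every library and had no overlap between the pools, fell outside most of these lists. On the polysome side they belonged to *Gpx6*, *H2-K1*, *Necap2*, *Nlrp14*, *Ldhb*, *Nlrp5*, *Cog6*, *Padi6*, *Kmt2d* and *Chmp5*, from 3.57 to 3.09. *Kmt2d*, a histone H3K4 methyltransferase was at 8.35, 9.1 and 8.43 FPKM in RNP and at 85.4, 82.4 and 78.4 FPKM in polysomes (3.11 ± 0.22, limma adjusted p = 6.56e-05). *Necap2* (endocytic sorting), *Cog6* (Golgi traffic) and *Chmp5* (endosomal sorting) were at 41.9 to 76.8, 32 to 47.4 and 87.6 to 151 FPKM in polysomes and 2.9 to 6.25, 1.67 to 6.33 and 9.92 to 14.6 FPKM in RNP. *Gpx6*, a glutathione peroxidase, was at 3.29 to 14 and 78.4 to 97.1 FPKM.

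On the RNP side the 10 were *Iqcf1*, 1700056E22Rik, *Abhd3*, *Fam69b*, *Ddit3*, *Cdc26*, *Abhd17a*, *Ier5l*, *Arxes1* and *Dok4*, from -3.32 to -2.1. *Iqcf1* was at 75.1, 69.8 and 67.1 FPKM in RNP and at 7.75, 12.5 and 2.14 FPKM in polysomes (-3.32 ± 0.48, limma adjusted p = 0.00294). *Ddit3* encodes CHOP, a stress factor whose translation is held back by an upstream reading frame in unstressed cells. It was at 189, 203 and 145 FPKM in RNP and at 26.5, 27.2 and 56.9 FPKM in polysomes (-2.32 ± 0.3, limma adjusted p = 0.00156), and its exons overlap those of *Gm4189* and *Mars*. The calls of 1700056E22Rik and *Fam69b* were lost without any 1 of the RNP libraries, that of *Arxes1* without the first or the second, that of *Abhd17a* without the first and that of *Abhd3* without the second.

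Transcript length and base composition had rank correlations near 0 with the pool difference, though the outer of 10 equal groups differed for some features. In the group of lowest coding GC content the median was -0.03, with 9.65% called higher in polysomes and 5.42% in RNP. In the highest group the median was -0.29, with 5.53% and 9.65%. Calls higher in polysomes were 10.3% in the group of shortest 5' untranslated regions and 4.57% in the longest. The Spearman rho across 9218 protein-coding genes was -0.0132 with coding length, 0.00356 with 3' untranslated length, -0.0671 with 5' untranslated length and -0.0661 with the GC content of the coding sequence. Coding length had a shallow U shape, with medians of 0.1 in the shortest of 10 equal groups (78 to 516 bases), -0.2 in the fifth (1134 to 1353 bases) and 0.06 in the longest (3348 to 22182 bases). The shortest group also had the most calls, 15.1% higher in polysomes and 8.62% higher in RNP, against 4.56% and 1.52% in the longest. The subcortical maternal complex, less the median of genes of its members' own group of coding length, had a median of 2.34, and the dormant mRNAs -0.54.

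The sign of the WT pool difference was shared by most of these genes in *Lsm14b*-KO oocytes. *Lsm14b* itself was at 0 to 0.893 FPKM in the 6 KO libraries. Of the 1406 genes called in WT, 1333 (94.8%) had a difference of the same sign in KO, and the median of the lists was 1.94 there for the subcortical maternal complex, 1.33 for egg coat and surface and -0.6 for the dormant mRNAs. Over the 9574 genes the differences of the 2 genotypes had a Pearson r of 0.606 across genes. In a fit of all 12 libraries, the interaction of genotype and pool was called for 26 of 10949 genes (0.237%), with 9 higher and 17 lower in KO. Of the named genes, *Cetn2* (centrin 2, of centrosomes and spindle poles) was among them. It was at 53, 42.7 and 34.1 FPKM in RNP and 227, 213 and 225 FPKM in polysomes of WT, a difference of 2.35, against 0.59 in KO (difference between them -1.76 ± 0.21, limma adjusted p = 0.0109). *Cox8a* was another, at 1.5 in WT and 0.22 in KO (limma adjusted p = 0.0204). With the replicate number as a block the count was 0, and both genes had a limma adjusted p of 0.0794. *Cetn2* also lost its call without the second KO RNP library (limma adjusted p = 0.0533). Without the intensity trend neither gene was called, with a limma adjusted p of 0.0658 for *Cetn2* and 0.17 for *Cox8a*. *Cox8a* also lost its call without the second or the third WT RNP library, any 1 of the KO RNP libraries or the second KO polysome library (limma adjusted p up to 0.0803 in these omissions). For *Plat*, *Btg4*, *Nlrp14*, *Gdf9* and *Zp3* the difference between genotypes was not called, at -0.12, 0.47, -0.61, -0.35 and 0.23.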

How the data were processed

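RNA was amplified by Smart-seq2, and reads were trimmed, mapped to mm10 with TopHat2 2.0.13 and summarized by the authors with Cufflinks 2.2.1 as FPKM per gene symbol and library, and this deposited FPKM table (24259 genes) was the only input. The annotation release is not given in the sources used here. Its 54 other columns hold the authors' own fold changes and p-values between groups and were not used. FPKM holds no counts, so log2(FPKM + 1) was fitted with limma 3.58.1 (R 4.3.3) with its trend option, for genes at 1 FPKM or more in at least 3 of the 6 WT libraries, and p-values were adjusted over all genes tested. A difference on this scale understates the change of low genes. Figures were drawn with matplotlib 3.10.9.

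Positions, lengths and 3' ends came from GENCODE M21 on GRCm38, to which 23872 symbols were matched (99.4% at an overlapping position), with 1 transcript per gene, an annotated principal one where there was one and then the longest in coding sequence. Shared exons were counted on either strand, since strand-specific counting is not stated. Depth was estimated on the assumption that the effective length is the transcript length less 200 bases. The fit was also run on simulated data with independent errors, whose spread followed the level in these same libraries. That run cannot show whether the intensity trend holds or whether the libraries are independent.

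The 41 lists with tested members, their members and the tests were chosen with earlier results of these data known. Genes were named by rule: the 10 largest differences in each direction among genes called, averaging 10 FPKM or more, above 0 in every library and not overlapping between pools, the member of each list with the largest difference in each direction under these conditions, and *Lsm14b*, the dormant mRNAs and the zona genes whatever their values. Other genes in the text were picked after their values were seen. Each library was left out in turn, and pseudocounts, filters, scaling, the intensity trend, a replicate block and a fit of all 12 libraries were tried.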

Additional observations from a re-analysis of the deposited data

Results flagged for a closer look

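The interaction of genotype and pool, a limma test of whether the polysome less RNP difference itself differs between *Lsm14b*-KO and WT oocytes, was called for 26 of 10949 genes (Benjamini-Hochberg adjusted p under 0.05), and 1220 genes had an unadjusted p under 0.05. The count ran from 0 to 46 when 1 of the 12 libraries was left out, and was 0 with the replicate number as a block. Among the genes named by rule, the interaction was called for *Cetn2*, whose KO less WT value was -1.76 ± 0.21 SE on the log2 scale (2.35 in WT and 0.59 in KO, limma adjusted p = 0.0109). Groups of 3 libraries were too small for a search for single outlying libraries.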

How the results depend on the processing

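FPKM carries no counts, so sampling error enters only through the spread between libraries. Genes that averaged under 50 FPKM were called less often (8.34%) than the others (44.3%). They still gave 331 calls higher in polysomes and 327 higher in RNP. Each WT call kept its direction under all 15 alternatives in which its gene was tested, except 1 of 1406 under quantile normalization. The 1406 calls (763 higher in polysomes, 643 in RNP) became 728 (445 and 283) without the intensity trend and 2302 (1193 and 1109) in a fit of all 12 libraries. Leaving out 1 library gave 780 to 1212 calls (519 to 637 and 259 to 609). Under pseudocounts of 0.1 and 5, no filter, a filter at 5 FPKM, rescaling to a common median and quantile normalization there were 985 to 1504 calls. The share of calls that were higher in polysomes was 54.3%, with 57.6% after rescaling and 51% after quantile normalization, and the median over all genes was then -0.06 and -0.03. The genotype interaction (26 genes) gave 6 without the intensity trend, 0 with the replicate block, and 0 to 46 with 1 library left out. The cause of these shifts was not tested. Same-numbered libraries did not deviate together (Pearson r of their deviations across genes -0.0116 to -0.0071), and in these deviations no library correlated best with its own number. Pairs of different number also lay near 0, at up to 0.0188. These values therefore cannot show whether same-numbered libraries came from the same lysate. With the replicate block the WT comparison gave 1165 calls (654 and 511). Of 103 named genes with a call, 60 kept it under every alternative, 38 lost it without at least 1 library, and none changed direction. The share with a CPE was 11.3% to 13.3% of genes higher in polysomes and 29.6% to 39.7% of genes higher in RNP over all alternatives.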
